A study of Cavia porcellus with 6 samples.

Results

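Rod and cone photoreceptor genes were followed in RNA sequencing libraries of the guinea pig sclera, the collagenous outer coat of the eye that lies behind the retina. The set was named by gene symbol and holds 42 genes of phototransduction, the outer segment and photoreceptor transcription. Of these, 40 were found among the 32193 genes of the count table, 11 used by rods, 8 used by cones, 19 used by both cell types and 2, Gnb1 and Unc119, that many tissues also express. Arr3, the cone arrestin gene, and Tulp1 were not analysed here.

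The libraries came from posterior sclera of right eyes on day 28 of induction, with 3 from animals with form-deprivation myopia (FDM, an eye kept from seeing a sharp image) and 3 from the control group (NC). The animals' strain, sex and age were not given in the sources used here, and no library is labelled as treated with the quercetin of the series title. The replicates are named by the number in their titles, and p-values measure the spread between these libraries.

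Rods serve dim light and cones serve bright light and colour. In both, light on an opsin activates the G protein transducin, transducin releases the phosphodiesterase PDE6 from its inhibitory subunit, cyclic GMP falls and cyclic nucleotide-gated channels close. Guanylate cyclases and their calcium-binding activators restore cyclic GMP, while opsin kinase and arrestin end the signal. Most steps use separate rod and cone genes, so that a rod part and a cone part can be read in a tissue sample. Photoreceptors belong to the retina and are not a cell type of the sclera.

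Photoreceptor transcripts were present in all 6 scleral libraries at widely different levels, and FDM and NC overlapped for each of the 40 genes. The 38 genes other than Gnb1 and Unc119 took 2.98% of all counts in NC 2 (95% Wilson interval 2.97 to 2.99%), 0.990% in FDM 3 (0.985 to 0.994%) and 0.817% in NC 1 (0.812 to 0.823%). They took 0.151% in FDM 2 (0.149 to 0.153%), 0.0621% in NC 3 (0.0609 to 0.0633%) and 0.0251% in FDM 1 (0.0243 to 0.0261%). The highest and the second lowest library were thus both controls, and the second highest and the lowest were both form-deprived. These intervals cover counting error only. Totals per library were 10377397 to 17534982 counts. In bulk tissue, fewer photoreceptors and less RNA per photoreceptor cannot be told apart.

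Nearly all of the genes ranked the libraries alike. NC 2 was highest for 39 of the 40 genes, the exception being the short-wavelength opsin gene Opn1sw, which was highest in FDM 3. FDM 1 was lowest or tied for lowest for 36 genes and NC 3 was lowest for the other 4. The full order NC 2, FDM 3, NC 1, FDM 2, NC 3 and FDM 1 was shown by 22 genes, and 9 more differed from it only in that NC 1 stood above FDM 3. Between the highest and the lowest library the median gene of the set spanned 8.77 log2 units of CPM (counts per 1000000 library counts after TMM scaling, a correction for library composition, with a prior count of 2). The median over all 16348 genes tested was 2.50. For 24 genes the low end is a count of 0 in FDM 1, and without that library, an alternative chosen after seeing the data, the medians were 5.44 and 1.88.

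**Figure D1:**
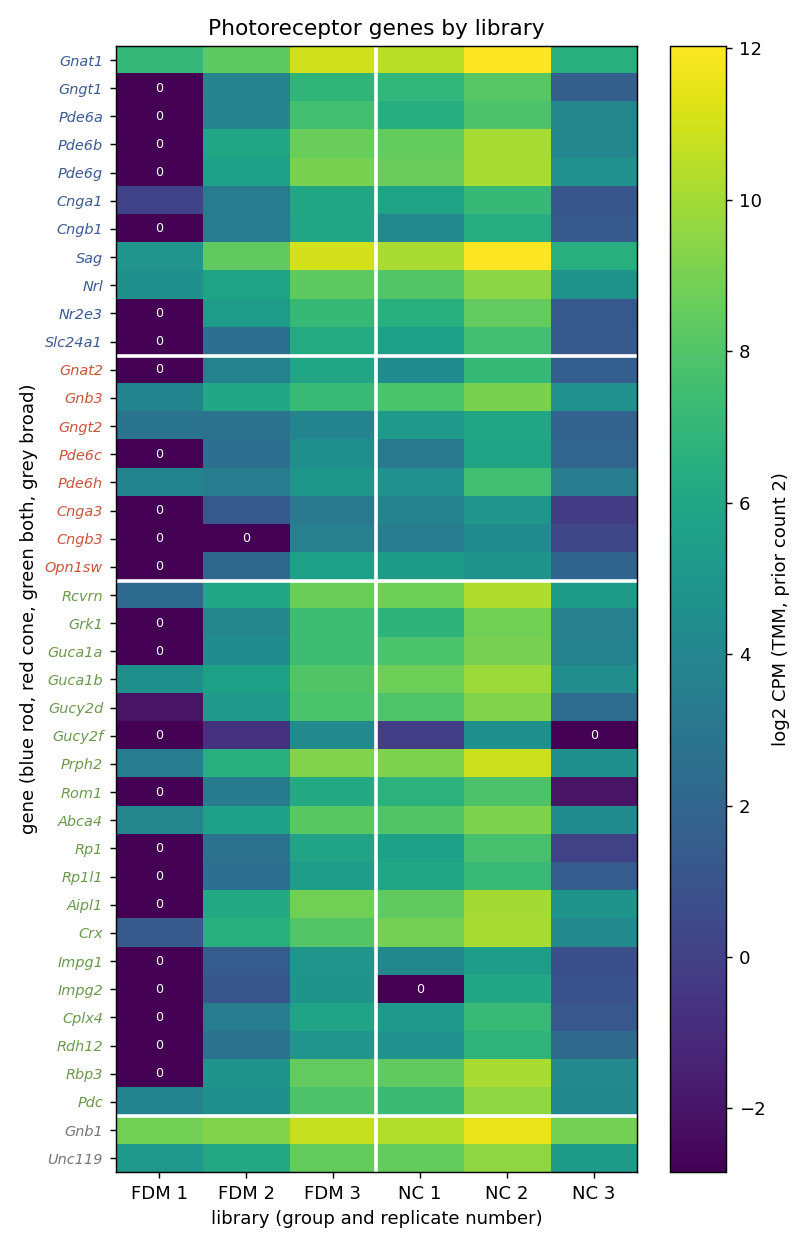
Level of the 40 photoreceptor genes (rows, by class) in the 6 libraries (columns), as log2 CPM with TMM scaling and a prior count of 2. A 0 marks a gene without counts. The column of NC 2 is the brightest and that of FDM 1 is the darkest, with 24 genes at 0.

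Rod genes held the largest summed counts of the 3 photoreceptor classes in every library. Gnat1, which encodes the alpha subunit of rod transducin, held 136, 326 and 1959 CPM in FDM 1, 2 and 3 and 1418, 4189 and 94.0 CPM in NC 1, 2 and 3. Sag, the rod arrestin gene, held 30.2, 343 and 2039 CPM in FDM and 1147, 4189 and 92.9 CPM in NC, in the same order of replicates. Both genes were therefore far higher in FDM 3 than in NC 3 and higher in NC 2 than in FDM 3, so the groups overlapped. Rod PDE6 is built from the catalytic subunits encoded by Pde6a and Pde6b and the inhibitory subunit encoded by Pde6g. Pde6a was at 0, 13.1 and 186 CPM in FDM and 87.2, 239 and 15.2 CPM in NC. Pde6b was at 0, 61.4 and 391 CPM in FDM and 364, 1096 and 15.9 CPM in NC. Pde6g was at 0, 51.7 and 529 CPM in FDM and 392, 1152 and 26.0 CPM in NC. None of the PDE6 genes of rods had a count in FDM 1, where 3 counts, the limit that a count of 0 allows, correspond to 0.295 CPM. Against that limit, which covers counting error only, Pde6g was at least 3903-fold higher in NC 2 than in FDM 1. At its lowest share of the photoreceptor counts in the other libraries Pde6g would have had 95.7 counts in FDM 1. The 4 rod genes with more than 3 counts in FDM 1 differed less between these libraries, by 28.9-fold for Nrl, 30.8-fold for Gnat1, 139-fold for Sag and 140-fold for Cnga1.

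The rod channel genes behaved in the same way. Cnga1, which encodes the A subunit of the cyclic nucleotide-gated channel, was at 0.984, 10.5 and 64.5 CPM in FDM 1, 2 and 3 and 54.2, 137 and 2.08 CPM in NC 1, 2 and 3. The other rod genes were Gngt1 (transducin gamma subunit), Cngb1 (channel B subunit), Slc24a1 (sodium/calcium-potassium exchanger of the rod outer segment) and the transcription factor gene Nr2e3, which represses cone genes in rods. All of them were at 0 in FDM 1 and reached their highest value in NC 2, at 292, 85.6, 189 and 352 CPM. Nrl, the transcription factor gene that sets rod fate, was detected in every library, at 24.2, 55.8 and 319 CPM in FDM and 265, 700 and 26.8 CPM in NC.

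Cone genes followed the same libraries over a range that was narrower at the median, 7.52 log2 units of CPM against 10.4 for rod genes. Gnat2, the cone transducin alpha gene, was at 0, 13.0 and 61.0 CPM in FDM 1, 2 and 3 and 19.8, 139 and 2.91 CPM in NC 1, 2 and 3. Pde6c, the catalytic subunit gene of cone PDE6, was at 0, 5.98 and 23.8 CPM in FDM and 8.69, 57.9 and 3.95 CPM in NC. Its inhibitory partner Pde6h was at 14.4, 11.0 and 33.1 CPM in FDM and 25.3, 188 and 10.3 CPM in NC. FDM 1 thus held the cone inhibitor transcript without a count of the cone catalytic one, and NC 2 was again highest for each gene. Gngt2, the gamma subunit gene of cone transducin, was at 7.28, 6.27 and 14.3 CPM in FDM and 36.1, 63.8 and 3.43 CPM in NC. Gnb3, its beta subunit gene, which bipolar cells also express, was at 14.8, 65.8 and 152 CPM in FDM and 226, 517 and 25.1 CPM in NC. Cnga3, the cone channel A subunit gene, was at 0, 2.23 and 8.39 CPM in FDM and 13.3, 30.5 and 0.728 CPM in NC. The cone channel B subunit gene Cngb3 had no count in FDM 1 or FDM 2 and at most 21.3 CPM, in NC 2.

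Opn1sw, the opsin gene of short-wavelength cones, departed from this order. It was at 0, 4.18 and 47.3 CPM in FDM 1, 2 and 3 and 38.9, 28.8 and 3.74 CPM in NC 1, 2 and 3. NC 2, the highest library for the other 39 genes, held 0.609 times the Opn1sw level of FDM 3. Across the set the ratio of NC 2 to FDM 3 had a median of 2.51 and ran up to 5.66, for Pde6h.

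Among genes used by both cell types, Rcvrn, which encodes the calcium sensor recoverin, was at 4.92, 67.2 and 422 CPM in FDM 1, 2 and 3 and 436, 1220.5 and 38.2 CPM in NC 1, 2 and 3. Prph2, whose product shapes the disc rims of the outer segment, was at 10.6, 87.6 and 583 CPM in FDM and 571, 1869 and 24.1 CPM in NC. Rbp3, the gene of the retinoid carrier between photoreceptors and pigment epithelium, was at 0, 29.3 and 359 CPM in FDM and 344, 1111 and 17.6 CPM in NC. In each of them FDM 3 and NC 1 lay close together, between the high NC 2 and the low FDM 1, FDM 2 and NC 3. Crx, the homeobox factor gene that drives many photoreceptor genes, was at 2.36, 93.4 and 266 CPM in FDM and 486, 1147 and 18.7 CPM in NC. Pdc, the gene of the transducin-binding phosphoprotein phosducin, was at 14.3, 24.5 and 232 CPM in FDM and 156, 746 and 17.2 CPM in NC. Abca4, the outer segment flippase gene of retinal clearance, was at 14.9, 51.7 and 295 CPM in FDM and 255, 581 and 20.3 CPM in NC. Guca1b, which encodes a guanylate cyclase activator, was at 23.3, 49.5 and 250.0 CPM in FDM and 424, 907 and 22.0 CPM in NC. For these genes too the lowest NC library lay below FDM 2 and FDM 3, so the groups overlapped.

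The remaining genes of both cell types were at 0 in FDM 1, apart from the cyclase gene Gucy2d with 1 count. They were Grk1 (opsin kinase), Guca1a (cyclase activator), Gucy2f (cyclase), Rom1 (partner of the Prph2 product), Rp1 and Rp1l1 (axoneme of the outer segment), Aipl1 (chaperone of PDE6), Impg1 and Impg2 (matrix between photoreceptors), Cplx4 (ribbon synapse) and Rdh12 (retinol dehydrogenase). Their values in NC 2 ran from 24.3 CPM for Gucy2f to 1036 CPM for Aipl1. Single genes also missed in other libraries, namely Impg2 with 0 counts in NC 1, Gucy2f with 0 counts in NC 3 and Rom1 with 2 counts in NC 3. The broadly expressed Gnb1, the beta subunit gene of rod transducin and of many other G proteins, varied least, at 465, 584 and 1713 CPM in FDM and 1269, 2932 and 493 CPM in NC. Unc119, the gene of a lipid-binding trafficking factor, was at 34.4, 70.2 and 373 CPM in FDM and 362, 751 and 38.4 CPM in NC.

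Most rod genes and most genes of both cell types kept similar proportions in 5 of the libraries. Most cone genes did not, and FDM 1 differed from the other libraries. Gnat1 took 16.6 to 19.9% of the summed counts of the 38 genes in FDM 2, FDM 3, NC 1, NC 2 and NC 3, although the sum itself ranged from 10886 counts in NC 3 to 412088 in NC 2. Aipl1 took 4.13 to 5.19% and Prph2 4.25 to 7.53% in these libraries. Of the 35 genes with counts in all 5, 24 kept their share within a 3-fold range, with a median range of 2.17-fold and a lowest of 1.20-fold, for Gnat1. The widest was that of Rom1, at 69.9-fold, since it took 0.0184% in NC 3 and 0.620 to 1.28% in the other 4. Cone genes ranged 3.31-fold for Gnat2, 4.24-fold for Gngt2, 5.70-fold for Opn1sw, 5.98-fold for Pde6h and 6.65-fold for Pde6c. Only the cone genes Gnb3 (2.93-fold) and Cnga3 (1.92-fold) stayed within 3-fold, and Cngb3 had no count in FDM 2. Also over 3-fold were the rod genes Cngb1, Pde6a and Nr2e3 and, of both cell types, Gucy2d and Rp1. In FDM 1 the 38 genes had 3029 counts, of which Gnat1 took 45.6%, and 24 of them had none. With the lowest share seen elsewhere, 12 of these 24 would have had at least 10 counts, and Aipl1 would have had 125. Over all genes, 12783 were detected in FDM 1, 14416 in NC 1 and 17689 to 20591 in each remaining library, and whether this loss of genes sets the photoreceptor values of FDM 1 was not tested.

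Set against each other as sums, the rod part varied more between libraries than the cone part, while single genes of the classes overlapped. NC 2 exceeded NC 3 by 15.7- to 158-fold for single rod genes and by 7.69- to 47.7-fold for single cone genes. Summed over the 11 rod genes, the FDM libraries 1, 2 and 3 had 191, 933 and 5884 CPM and the NC libraries 4015, 12622 and 283 CPM, a 66.0-fold range. Over the 8 cone genes they were 36.4, 108 and 352 in FDM and 379, 1045 and 51.3 in NC, a 28.7-fold range. The cone genes took their largest shares of the rod and cone counts in the libraries with the fewest photoreceptor counts and their smallest in FDM 3. That share was 16.0% in FDM 1 (95% Wilson interval 14.6 to 17.5%), 15.4% in NC 3 (14.5 to 16.3%), 10.4% in FDM 2 (9.93 to 10.9%), 8.62% in NC 1 (8.36 to 8.88%), 7.65% in NC 2 (7.54 to 7.76%) and 5.64% in FDM 3 (5.50 to 5.79%). The FDM mean of 10.7 ± 5.18% and the NC mean of 10.5 ± 4.20% (SD, n = 3) differed by far less than the spread within each group. In FDM 1 all 370 cone counts came from Gnb3 (150), Pde6h (146) and Gngt2 (74), and the other 5 cone genes were at 0. Gnb3, which bipolar cells also express, held 483 of the 987 cone counts in NC 3 and 8573 of 17350 in NC 2. The shares depend on transcript length and are compared here between libraries only.

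Counterpart subunits showed where the cone share moved. Gnat2 held 3.83, 3.02, 3.21 and 3.0% of the Gnat1 and Gnat2 counts in FDM 2, FDM 3, NC 2 and NC 3 and 1.38% in NC 1. Transducin alpha thus kept nearly one proportion in 4 libraries whose levels differed widely. Pde6h held 17.6, 5.89, 6.06, 14.0 and 28.4% of the Pde6g and Pde6h counts in FDM 2, FDM 3, NC 1, NC 2 and NC 3. Gngt2 held 31.1, 11.0, 21.6, 17.9 and 53.2% of the Gngt1 and Gngt2 counts in the same libraries. For both subunits, as for Pde6c at 19.9% of the Pde6b and Pde6c counts, NC 3 had the highest value of these 5 libraries. In FDM 1 the cone gene supplied all 146 counts of the PDE6 inhibitor pair and all 74 of the transducin gamma pair, while the rod gene supplied all 1380 of the transducin alpha pair. The channel A pair lay at 11.5 to 25.9% cone in the 5 libraries. The interval of FDM 3 (9.80 to 13.5%) lay below those of all NC libraries and overlapped that of FDM 2 (12.6 to 23.8%). Such intervals cover counting error and not the spread between libraries. In the channel B pair Cngb3 held 0 and 16.2% of the counts in FDM 2 and FDM 3. It held 37.9, 19.9 and 31.8% in NC 1, 2 and 3, with NC 1 rather than NC 3 highest.

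**Figure D2:**
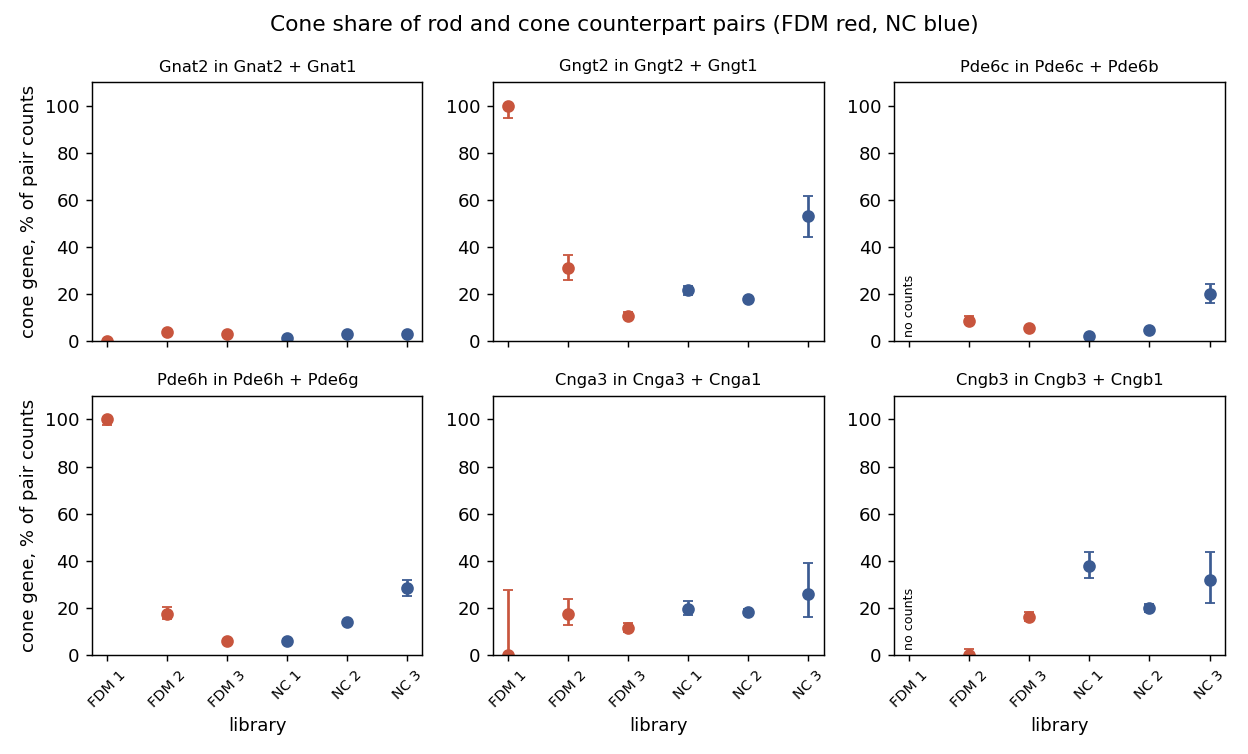
Share of the cone gene in the summed counts of 6 rod and cone counterpart pairs, in percent, by library, with 95% Wilson intervals as bars. Gnat2 stays between 1.38 and 3.83% outside FDM 1, whereas Gngt2 and Pde6h reach 53.2 and 28.4% in NC 3 and 100% in FDM 1.

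The comparison of FDM with NC asks whether photoreceptor transcripts in the posterior sclera differed after form deprivation. All 40 genes passed the filter on low counts and had a lower fitted level in FDM, and none passed the test. With edgeR's quasi-likelihood test, 0 of 40 had an adjusted p below 0.05 and 0 of 40 an unadjusted p below 0.05, where 0% and 0.954% of all 16348 genes tested did. DESeq2 called 0 of the 38 of these genes to which it gave an adjusted p, against 0.131% of all genes, and limma-voom called 0 of 40. The median log2 fold change was -1.49 over the 40 genes, with a range from -2.19 for Crx to -0.43 for Gucy2f and standard errors of 0.83 to 2.41. Over all genes tested the median was 0.02, with 7980 genes lower and 8368 higher. For 0 of the 40 genes did all FDM libraries lie below all NC libraries, against 2.81% of all genes, and for 0 did they lie above, against 2.74%.

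By class, the median log2 fold change was -1.31 for the 11 rod genes, -1.59 for the 8 cone genes and -1.78 for the 19 genes of both cell types. For Gnat1 the FDM mean was 807 ± 1002 CPM and the NC mean 1900.3 ± 2089 CPM (SD, n = 3), and the fitted log2 fold change was -1.24 ± 1.33 (SE). The smallest p of the set belonged to the cone gene Gngt2, with an FDM mean of 9.30 ± 4.39 CPM and an NC mean of 34.5 ± 30.2 CPM (SD, n = 3). Its log2 fold change was -1.89 ± 0.93 (SE), and edgeR's quasi-likelihood test gave an unadjusted p of 0.0725 and an adjusted p of 0.999999. Pde6h had -1.93 ± 1.03, Guca1b -2.07 ± 1.29, Gnb3 -1.72 ± 1.10 and Crx -2.19 ± 1.65. For each of these genes the spread within NC was about as large as the NC mean. With 3 libraries a group, the smallest two-sided p of an exact permutation test is 0.1.

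Of the single libraries left out, the control NC 2 weakened the common direction most. Without NC 2, the library of highest photoreceptor content, 24 genes were lower and 16 higher in FDM, 6 of the 16 being rod genes, 3 cone genes and 6 genes of both cell types. The median over the 40 genes was then -0.18, that of the rod genes 0.08 and that of the cone genes -0.46. Gnat1 had 0.08, Sag 0.36, Gnat2 1.10 and Gngt2 -1.10 in that fit. Without FDM 3, the form-deprived library of highest content, the median over the set was -3.93. Without FDM 1 it was -0.90, without FDM 2 -1.10, without NC 1 -1.75 and without NC 3 -2.19.

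**Figure D3:**
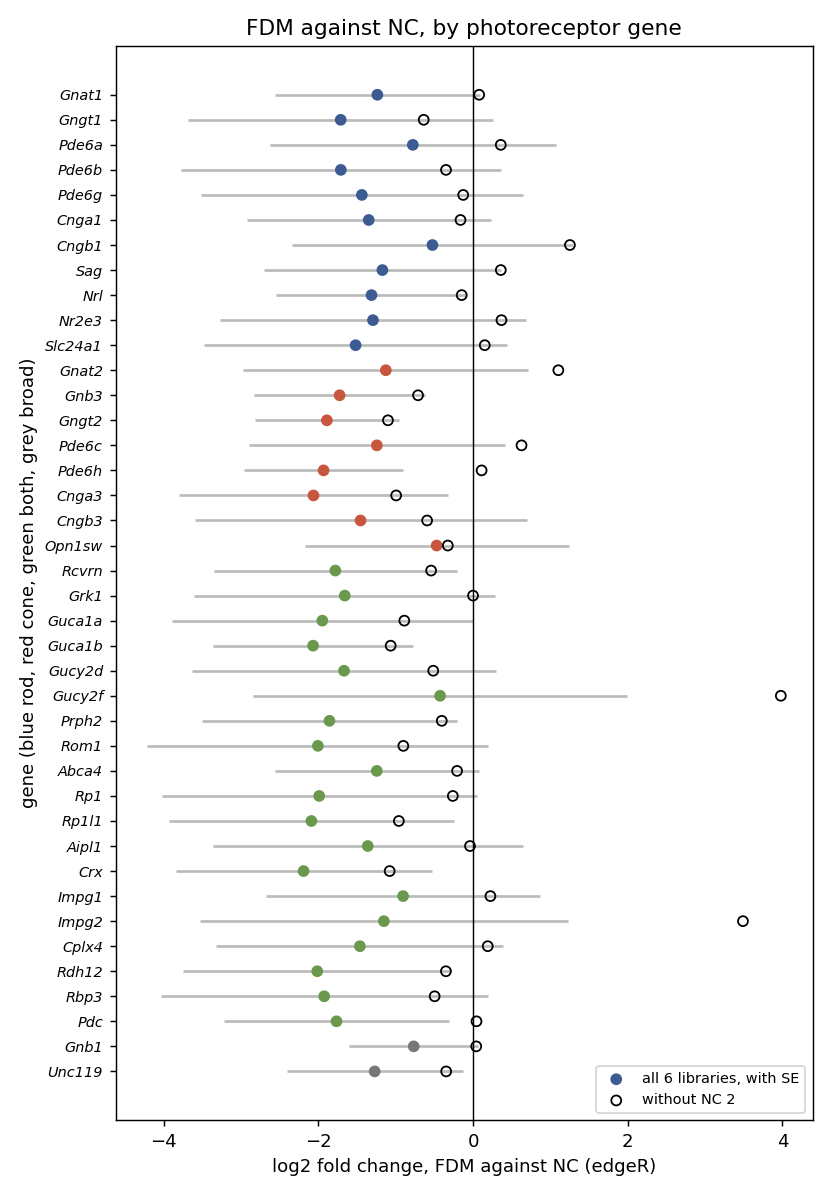
Log2 fold change of FDM against NC for the 40 genes from edgeR's quasi-likelihood fit, with all 6 libraries (filled points, bars show the SE) and without NC 2 (open points). All filled points lie below 0, and 16 of the open points lie above it.

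Photoreceptor genes outside the set were mostly lower in FDM as well. Of 40 further photoreceptor genes listed, 38 were in the table and 37 were tested, with 36 lower and 1 higher in FDM, a median of -1.33 and 0 past the adjusted test. Without NC 2 that median was 0.02. Cacna1f, the calcium channel gene of photoreceptor synapses, was at 0, 45.5 and 257 CPM in FDM 1, 2 and 3 and 315, 556 and 8.11 CPM in NC 1, 2 and 3, with NC 2 again highest. Not every gene of this list followed that order. Prdm1 was at 13.2 CPM in FDM 1 and 5.54 CPM in NC 2, and Rxrg at 50.8 CPM in FDM 1 and 29.1 CPM in FDM 3.

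Markers of other cells moved with the photoreceptor genes in part. The 10 bipolar cell markers summed to 31.7, 134 and 517 CPM in FDM 1, 2 and 3 and 459, 1018 and 72.0 CPM in NC 1, 2 and 3, the order of libraries shown by the 22 photoreceptor genes. In the fit all 10 were lower in FDM, with a median of -1.38 (-0.25 without NC 2), and 0 passed the adjusted test. Grm6, the glutamate receptor gene of ON bipolar cells, had no count in FDM 1 and 343 CPM in NC 2. Prkca, the protein kinase C gene that marks rod bipolar cells, was at 11.8, 48.9 and 67.7 CPM in FDM and 32.7, 52.5 and 54.1 CPM in NC, highest in FDM 3, with a log2 fold change of -0.12 ± 0.61 (SE). The 12 amacrine and horizontal cell markers had sums of 70.0 to 178 CPM in FDM libraries and 104 to 667 CPM in NC libraries, with NC 2 highest, and Calb2, of amacrine cells, had its highest value of 186 CPM there. The 9 ganglion cell markers had sums of 150 to 457 CPM in FDM libraries and 403 to 694 CPM in NC libraries and did not share one order of libraries. Nefl, a neurofilament gene, was highest in NC 2, at 216 CPM. Sncg, the gamma-synuclein gene, was highest in FDM 1, at 187 CPM against 92.8 CPM in NC 2, and Rbpms, an RNA-binding protein gene of ganglion cells, was highest in FDM 1, at 123 CPM, and lowest in NC 2, at 36.1 CPM. The 8 Müller glia markers summed to between 1296 CPM in FDM 3 and 3400 CPM in FDM 2, most of it from Glul, the glutamine synthetase gene, at 704 to 2355 CPM. Their mean log2 CPM ran from 2.25 in FDM 1, where 3 of them were at 0, to 7.10 in NC 2. Dkk3, Rlbp1, Slc1a3 and Crym were highest in NC 2, at 833, 136, 100 and 82.7 CPM. Glul, Aqp4, Kcnj10 and Sox2 were highest in FDM 2 instead, at 2355, 579, 64.3 and 32.2 CPM. Of the amacrine and horizontal, ganglion and Müller lists 10 of 10, 6 of 7 and 7 of 8 tested genes were lower in FDM and 0 passed the adjusted test. Their medians were -1.68, -1.77 and -0.74, and without NC 2 they were -0.98, -0.92 and -0.47, with 10, 6 and 7 genes lower. Of 7 ganglion genes tested, 3 (Nefl, Nefm and Nefh) had an unadjusted p below 0.05 with edgeR's quasi-likelihood test, against 0.954% of all genes. For Nefl and Nefh all FDM libraries lay below all NC libraries, as for 2.81% of all genes.

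Neither the pigment epithelium nor the optic nerve lists followed the photoreceptor genes. The 10 pigment epithelium markers had sums of 241 to 483 CPM in FDM libraries and 290 to 588 CPM in NC libraries, with the highest sum in NC 1. Among them was Rgr, an opsin-family gene also used by Müller glia. Its values were 28.1, 29.0 and 38.4 CPM in FDM and 156, 150.2 and 41.7 CPM in NC. All FDM libraries thus lay below all NC libraries, as for 2.81% of all genes. For Rgr edgeR's quasi-likelihood test gave an unadjusted p of 0.00688 (adjusted 0.999999), and 0.954% of all genes had one below 0.05. The 7 pigment cell markers were all at 0 in FDM 1 and summed to 258 CPM in FDM 3, against 61.0 to 101 CPM in NC. The 8 markers of optic nerve glia and myelin were highest in FDM 2, at 13646 CPM, and lowest in FDM 3, at 189 CPM, where Gfap, an astrocyte gene, had no count. NC 3, low in photoreceptor genes, held 8854 CPM of this list. Of the pigment epithelium, pigment cell and optic nerve lists 5 of 10, 1 of 7 and 7 of 8 tested genes were lower in FDM, and 0 passed the adjusted test.

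The tissue label was set beside 13 scleral fibroblast markers, which were detected in every library. They summed to 37567, 17379 and 63415 CPM in FDM 1, 2 and 3 and to 59535 and 17237 CPM in NC 1 and NC 3. NC 2 had the lowest sum, 6424 CPM, together with the highest photoreceptor content. The skeletal muscle markers, of which 11 were in the table, had sums of 68111, 71170 and 11131 CPM in FDM 1, 2 and 3. Their sums were 105.2, 17399 and 27458 CPM in NC 1, 2 and 3. The muscle sum exceeded the fibroblast sum in FDM 1, FDM 2, NC 2 and NC 3. Of the fibroblast list 11 of 13 tested genes and of the muscle list 11 of 11 were higher in FDM, and 0 passed the adjusted test. Retinal and muscle genes were thus part of libraries labelled as sclera, and their part in the photoreceptor differences between libraries was not tested.

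**Figure D4:**
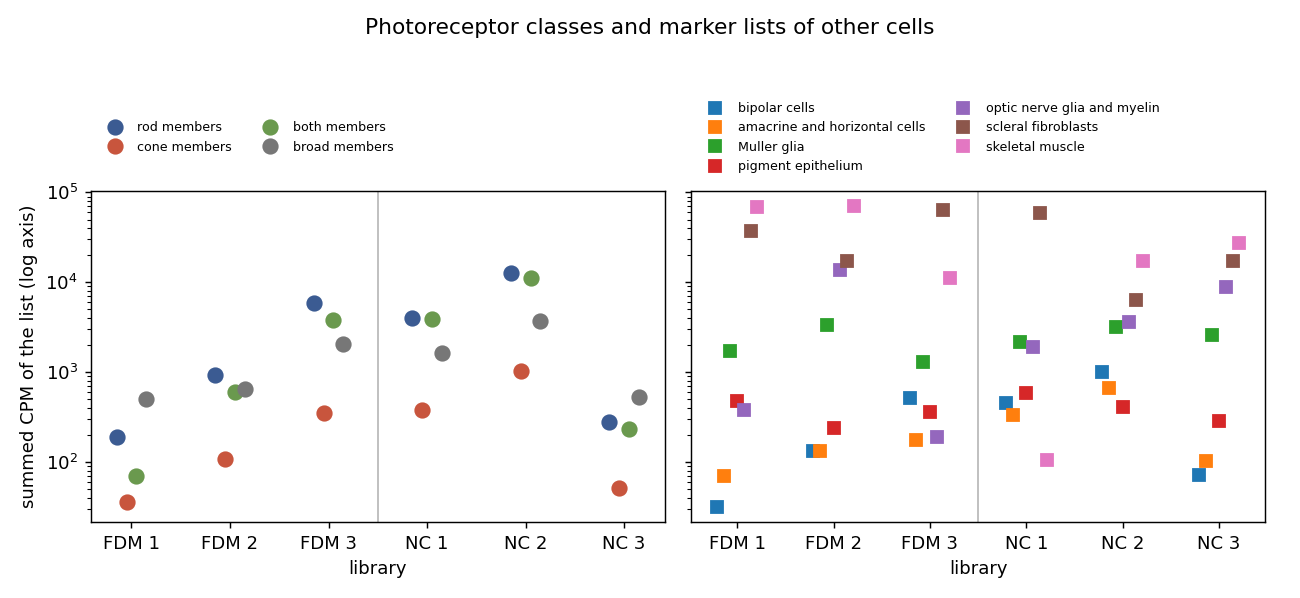
Summed CPM (log axis) in each library of the rod, cone, both and broad photoreceptor classes (left) and of marker lists of other cells (right); points are offset sideways for clarity. The bipolar list, from 31.7 CPM in FDM 1 to 1018 CPM in NC 2, follows the photoreceptor classes, and the fibroblast and muscle lists do not.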

How the data were processed

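The authors deposited raw read counts per gene, 1 column for each of the 6 libraries, with whole numbers only. The submitters' processing notes name Trimmomatic, STAR and HTSeq; their versions, the build and the strand setting were not given in the sources used here, so reads of overlapping genes cannot be told apart. Trizol extraction was followed by a NEBNext Ultra library kit, per the labels' protocols. Library totals are given with the results.

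Genes were matched by exact symbol. Counts were filtered with filterByExpr, scaled by TMM and fitted for all genes with edgeR 4.0.16 (quasi-likelihood, robust, group as the only term) in R 4.3.3, with Benjamini-Hochberg adjustment over 16348 genes. The fit was tested on data simulated with a smaller spread between libraries than the photoreceptor genes showed, so that test does not cover their spread. DESeq2 1.42.0 and limma 3.58.1 were alternatives. The SE is the absolute log2 fold change divided by the square root of F. Sums and shares were computed in Python 3.11.15. Binomial intervals are Wilson intervals at 95%.

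The genes of the set, their classes and the 10 marker lists were chosen with earlier results of these data known. Values in every library were given for a fixed choice of rod, cone and shared genes and for the 6 genes of smallest p, and for the top 2 by mean CPM of other lists where named; 1 gene that this rule takes is not reported here. Other settings, single libraries left out and the replicate number as a block were tried. No sequences or coordinates are printed.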

Additional observations from a re-analysis of the deposited data

How the results depend on the processing

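In every setting tried 0 photoreceptor genes were called, and the number at an unadjusted p below 0.05 was 0 to 4 with a library left out. The median log2 fold change of the set, -1.49, was -1.58 in DESeq2, -2.05 in limma-voom, -1.58 with RLE scaling, -1.73 with total counts, -1.62 without a filter, -1.52 at 1 CPM or more in 3 libraries, -1.59 without Gnb1 and Unc119 and -1.29 without both libraries numbered 1. Total counts moved the median of all genes from 0.02 to -0.23, and the distance of the set from it was -1.50, against -1.51 with TMM. With single libraries left out the medians ran from -3.93 to -0.18 for the set, -3.60 to 0.08 for rod genes and -3.14 to -0.46 for cone genes.

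With the replicate number as a block the median was -3.39, with 0 genes called. The numbers share no stated source, and same-numbered libraries deviated from their group means with correlations across genes of 0.10, 0.03 and -0.15.

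The rod minus cone level (mean log2 CPM of each class, FDM minus NC) was -0.30, with a spread within groups of 1.26 (SD). It turned positive without FDM 1 (0.62), without both libraries numbered 1 (0.81) and with summed CPM (0.03), and ran from -0.85 to 0.62 with single libraries left out. The median range of the shares of single genes, 2.17-fold without FDM 1, was 1.97-fold when NC 1 was left out as well, an alternative chosen after seeing the data. The 24 zeros in FDM 1 limit what can be said of rod and cone proportions there.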

Other observations

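The balance of the cone opsins differed widely between libraries. Opn1mw, the opsin gene of middle-wavelength cones, is one of the further photoreceptor genes listed and was singled out after its values were seen. Middle- and short-wavelength cones are known to populate different parts of the guinea pig retina. Opn1mw had 0, 24 and 139 counts in FDM 1, 2 and 3 and 596, 8625 and 56 counts in NC 1, 2 and 3, while Opn1sw had 0, 58 and 755 counts in FDM and 398, 478 and 72 counts in NC. Opn1mw thus supplied 29.3% of the counts of both opsins in FDM 2 (95% Wilson interval 20.5 to 39.9%) and 15.5% in FDM 3 (13.3 to 18.1%). It supplied 60.0% in NC 1 (56.9 to 63.0%), 94.7% in NC 2 (94.3 to 95.2%) and 43.8% in NC 3 (35.5 to 52.4%). In this share both FDM libraries with counts lay below all NC libraries, although the intervals of FDM 2 and NC 3 overlapped. In level the groups overlapped, with Opn1mw at 8.70 CPM in FDM 3 and 2.91 CPM in NC 3.

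Per count of the cone transducin gene Gnat2, Opn1mw had 0.133 and 0.143 counts in FDM 2 and FDM 3 and 2.94, 3.74 and 1.0 in NC 1, 2 and 3. Of the photoreceptor genes, 68 had at least 10 counts in each of these 5 libraries. Among these 68, 17 had a higher ratio to Gnat2 in all NC libraries than in FDM 2 and FDM 3. For 0 of them was the ratio lower in all NC libraries. The share of all genes that separates in this way was not computed. Gnat2 itself took 0.792 and 0.609% of the summed counts of the 38 genes in FDM 2 and FDM 3. In NC 1, 2 and 3 it took 0.239, 0.560 and 0.514%, less than in either of these FDM libraries. Ratios to Gnat2 therefore lean towards higher values in NC from the start. How far this sets the counts of 17 and 0 was not tested. The lowest NC ratio was 7.01 times the highest FDM ratio for Opn1mw and 1.67 times for Rdh12, the next gene. As a share of the summed counts of the 38 genes, Opn1mw had 0.106 and 0.0868% in FDM 2 and FDM 3 and 0.703, 2.09 and 0.514% in NC 1, 2 and 3. The log2 fold change of Opn1mw was -5.78 ± 2.15 (SE), for which edgeR's quasi-likelihood test gave an unadjusted p of 0.0305 and an adjusted p of 0.999999, and -3.14 without NC 2. DESeq2 gave it an adjusted p of 0.186. The ratios rest on 24 and 56 counts of Opn1mw in FDM 2 and NC 3 and on no counts in FDM 1.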
